A study of Mus musculus with 2 samples.

Results

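Neutrophils were described in 2 single-cell RNA sequencing (scRNAseq) libraries of the mouse kidney, 1 from a control kidney and 1 from an ischemic kidney. A neutrophil was taken to be a kept barcode with at least 10 unique molecular identifiers (UMIs, each counted as 1 captured RNA molecule) and at least 2% of its UMIs from S100a8 and S100a9, and with less than 0.5% of its UMIs from the complement genes C1qa, C1qb and C1qc. A barcode was kept with 200 genes or more, between 500 and 150000 UMIs, and no more than 55% of UMIs from mitochondrial genes. The members were thus chosen by measured values, the counts of S100a8, S100a9 and the C1q genes, and these are given as description only. The rule found 165 neutrophils among 13116 kept cells of the ischemia library and 18 among 12586 of the control library, 183 of 25702 together. As a share of kept cells this was 1.26% (95% Clopper-Pearson interval 1.07% to 1.46%) against 0.143% (0.0848% to 0.226%). These intervals cover counting error within each of the 2 libraries and are no test between conditions. With a minimum of 1000 UMIs per kept cell the ischemia share was 2.08%.

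Both kidneys were of male wildtype C57BL/6J origin at 19 weeks of age, and the design text describes left-sided ischemia without numbering the animals. The ischemia library was a kidney collected 24 h after 27 min of clamping, and the control library was the contralateral, uninjured kidney. Each group was 1 library, so library and condition cannot be told apart, no test between groups was run, and cells were not treated as replicates. The contralateral kidney belongs to an operated animal and is no measure of an unoperated one. The study asked how the receptor of the cytokine interleukin-1 (IL-1) on myeloid cells shapes kidney injury. It deleted the receptor in cells with the surface protein CD11c, and it listed neutrophils apart from its CD11c-positive populations. Neutrophils are a myeloid cell that produces IL-1.

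Neutrophils are short-lived phagocytes that form in the bone marrow, circulate in blood and enter injured tissue within hours. They are loaded during maturation with granules of antimicrobial proteins and proteases, follow chemokines, formyl peptides and lipid mediators through surface receptors, and kill microbes with the oxidants of the NADPH oxidase. After ischemia and reperfusion of the kidney they are among the first leukocytes to arrive, and they release cytokines and chemokines of their own.

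The deposited counts held 142959737 UMIs for the ischemia and 142686238 for the control library. The ischemia neutrophils carried 805212 UMIs, with a lowest, median and highest depth of 694, 4060 and 27629 UMIs per cell, and a median of 1450 genes. The 18 control neutrophils carried 107802 UMIs, with a median of 4304.5 UMIs and 1498 genes. Within the ischemia library, 3 other groups of cells served for comparison. They were 216 macrophages (C1q genes at least 0.5% of UMIs, median 8885.5 UMIs), 282 C1q-low monocytes (at least 5 UMIs of Csf1r, Ccr2, Ly6c2, F13a1 and Ms4a6c together, median 9428 UMIs) and, as a measure of free RNA, 204 thick ascending limb (TAL) cells of the tubule (Umod and Slc12a1 at least 10 UMIs and 1% of UMIs, median 24998 UMIs). The neutrophils were the shallowest of the 4 groups. The mitochondrial share of the ischemia neutrophils had a median of 4.39% and ran from 0.465% to 53.3%.

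The libraries shared 88 barcode sequences, 58 of them kept, and 0 of these was a neutrophil in both. A doublet caller (Scrublet) marked 2 control cells and 0 ischemia cells, under 0.5% of either library, so that it did not work here and no doublets were removed by it. Among the ischemia neutrophils, 8 cells with over 10000 UMIs held 20.3% of all neutrophil UMIs, and the printed ratios to macrophages that moved most without them are given both ways. In the control library, 2 of the 18 cells held 32.2%. Levels are given as CPM (counts scaled to 1e+06), which are the UMIs of a gene summed over the cells of a group and scaled to all UMIs of these cells. Intervals are 95% exact Poisson intervals for levels and exact conditional intervals for ratios, and they cover counting error only. Each transcript is counted at its 3′ end, so levels were not scaled to gene length.

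S100a8 and S100a9, which chose the cells, encode the subunits of calprotectin, the most abundant protein of neutrophil cytosol. S100a8 lies at chr3:90668978-90670035 (mm10, plus strand) and S100a9 at chr3:90692632-90695721 (minus strand). The number of S100a8 and S100a9 UMIs per ischemia neutrophil was 27 at the lowest, 405 at the median and 1404 at the highest. As a share of the cell's UMIs this was 2.13%, 9.87% and 25%, and in the control neutrophils 2.81%, 12.8% and 25.9%. The limit lay close to cells on both sides in the ischemia library and in a wide gap in the control library. The ischemia cells just inside the 2% limit stood at 2.13%, 2.30% and 2.33%, and those just outside, among cells with at least 10 such UMIs, at 1.99%, 1.95% and 1.90%. The control cells just inside stood at 2.81%, 3.20% and 4.25%, and those just outside at 0.494%, 0.394% and 0.368%. Among the 45 ischemia cells with at least 10 S100a8 and S100a9 UMIs but less than 2%, 17 were C1q-low monocytes and 0 were macrophages. No kept cell of either library passed both the S100 limit and the C1q limit. The neutrophils held 94.6% of all S100a8 and S100a9 UMIs of the kept ischemia cells, and 94.9% in the control library.

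**Figure D1:**
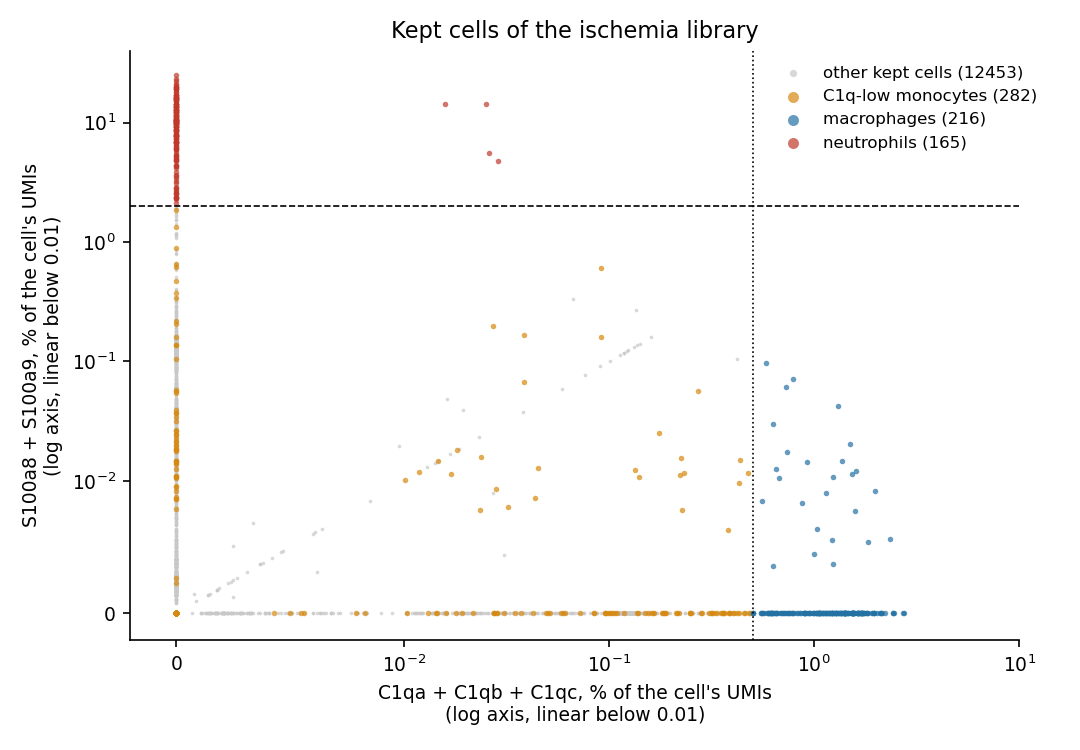
Each point is a kept cell of the ischemia library, placed by the percent of its UMIs from C1qa, C1qb and C1qc (x) and from S100a8 and S100a9 (y), both on log axes that are linear below 0.01, with the 2% limit dashed and the 0.5% limit dotted. The 165 neutrophils and 216 macrophages fill separate arms, and of the neutrophils 4 cells carried a C1q UMI.

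The other 3 markers given for the cells took no part in the choice. Retnlg, a resistin-like protein secreted by mature neutrophils, was found in 129 of 165 ischemia neutrophils (78.2%) with a lowest, median and highest count of 0, 5 and 204 UMIs per cell. Csf3r, the receptor for granulocyte colony-stimulating factor, was found in 93.3% of cells with 0, 6 and 24 UMIs. Cxcr2, the receptor for the chemokines Cxcl1 and Cxcl2, was found in 89.7% with 0, 4 and 17 UMIs. The TAL cells, which should lack these genes, carried a UMI of them in 1.47%, 0% and 0.490% of cells, and the shares in neutrophils were far above this background although the TAL cells were deeper. Retnlg stood at 3692 CPM in neutrophils and at 0 UMIs in macrophages, which makes it at least 2570-fold higher against a limit of 3 UMIs over the group. Cxcr2 (848 CPM) was likewise at least 590-fold higher, and Csf3r (1488 against 11.5 CPM) was 129-fold higher (86.6 to 203). All 5 markers were at least 4-fold higher than in macrophages and in monocytes, which is given as description only. S100a8 and S100a9 come from the rule itself. Retnlg and Cxcr2, at 0 UMIs in macrophages, could be compared only because the neutrophils held them, so they had to differ there. Apart from the rule, the label rests on the shares of cells with Retnlg, Csf3r and Cxcr2 given above.

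The difference from macrophages was set against all genes. Of 4028 genes with at least 100 UMIs over both groups, 399 (9.91%) were at least 4-fold higher in neutrophils and 629 (15.6%) at least 4-fold lower, with a median log2 ratio of -0.46. Against the C1q-low monocytes, 229 of 5309 genes (4.31%) were at least 4-fold higher and 458 (8.63%) at least 4-fold lower, with the same median of -0.46. The lower counts moved with the processing. Against monocytes it was 792 without the 8 deep cells, 747 after thinning and 714 by the mean of each cell's CPM, and against macrophages 121 of 1347 genes with macrophages at 2% C1q or more, where 414 (30.7%) were at least 4-fold higher and the median of all genes was 0.85. Genes at 0 UMIs in 1 group were given 3 UMIs there, and list medians below hold such genes at this bound. A gene that is nearly absent from 1 group passed the minimum through the other group and had to differ, so the counts of list members below are descriptions. Among the genes with the highest ratio to macrophages were S100a9, S100a8, Wfdc21, Retnlg, Acod1, Hba-a2, Hbb-bs, Mmp8 and Stfa2l1. Those with the lowest were C1qc, C1qb, C1qa, Ccl7, Aif1, Pf4, Ccl12, Ms4a6d, Ms4a7 and Cd72. The C1q genes and, for the neutrophil side, S100a8 and S100a9 come from the rule itself.

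Of 14 further genes of neutrophil identity, 12 had enough UMIs to be compared with macrophages, and all 12 were at least 4-fold higher, with a median log2 ratio of 8.09. Hdc, which makes histamine, was found in 96.4% of the cells with 0, 10 and 34 UMIs per cell (lowest, median, highest) and stood at 2223 against 4.31 CPM. G0s2, an inhibitor of fat breakdown, stood at 2121 against 4.79 CPM, and Mxd1, a Myc antagonist of terminal differentiation, at 1295 against 28.7 CPM. Ly6g, the surface protein of most neutrophil sorts, was sparse in RNA, with 57 UMIs in 16.4% of the neutrophils and 0 UMIs in macrophages, monocytes and TAL cells. Lcn2, the granule protein known as the injury marker NGAL, was higher in the TAL cells than in neutrophils. It stood at 1839 CPM in neutrophils, 113 in macrophages and 5954 in TAL cells, and it was found in 91.5% of neutrophils and 100% of TAL cells.

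Other cell types were looked for with marker lists. Of 9 macrophage markers, 4 were at 0 UMIs, C1qa, Mrc1 and Ms4a7 among them, in the ischemia neutrophils. Their sum was 173 CPM in neutrophils against 14938 in macrophages, a contrast that the rule fixed in part, since it used the 3 C1q genes. Of the markers outside the rule, Csf1r was the most abundant at 80.7 against 330 CPM, Cd68 stood at 63.3 against 600 CPM, and Ms4a7 and Mrc1 at 0 against 750 and 385 CPM. Of 6 monocyte markers, Vcan was at 0, and the sum was 115 CPM against 3067 in monocytes, mostly Ly6c2 at 64.6 CPM, where 4 of the 6 genes had served to choose the monocytes. The platelet markers Pf4, Ppbp, Itga2b and Gp9 were all at 0, as were 5 of 7 T and NK cell markers, 3 of 4 B cell markers and 5 of 7 markers of eosinophils, basophils and mast cells. Dendritic cell markers summed to 14.9 CPM, led by Flt3 at 6.21.

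Some signals of other cells lay in single droplets. The 4 globin genes summed to 2763 CPM in neutrophils against 3.35 in macrophages, but 2224 of their 2225 UMIs were in 1 cell, where they made up 34.0% of 6535 UMIs. Of 429 UMIs of MHC class II genes, 389 were in 2 cells of 23104 and 27629 UMIs. Of 199 UMIs of endothelial markers, 118 were in 1 cell of 25171 UMIs, and of 162 UMIs of TAL markers, 64 were in 1 cell of 26819 UMIs. By Scrublet's scores, 13 of the 165 neutrophils were among the 1149 of 13116 kept ischemia cells with the highest values (a limit of 8%, ties included). Leaving such cells out (chosen after seeing the data) moved the median log2 ratio of the MHC class II genes to macrophages from -4.52 to -7.81, and the counts of genes at least 4-fold higher and lower in neutrophils were then 406 and 690. Proximal tubule markers were spread over all cells, with medians of 21 UMIs per neutrophil, 20 per macrophage and 18 per TAL cell. As a share of UMIs this was 0.522% at the median in neutrophils and 0.219% in macrophages. The 7 proximal tubule markers had a median log2 ratio to macrophages of 1.25, with 0 of 7 past 4-fold, and Kap, for example, stood at 2011 against 939 CPM. How far tubule RNA enters other ratios was not tested.

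The granule genes are given by class. The azurophil granules are filled first, in promyelocytes of the marrow. Of the 6 genes listed for this stage, 5 (Mpo, Elane, Ctsg, Ms4a3 and Prss57) were at 0 UMIs among 805212, while Prtn3 had 3 UMIs. Of the specific granule genes, filled next, Camp was at 0, Fcnb had 1 UMI, Ltf 9 and Ngp 13. Of the 3 genes compared, Lcn2, Hp and Lyz2, 2 were at least 4-fold higher, with a median log2 ratio of 4.02. Hp, the hemoglobin-binding haptoglobin, stood at 719 CPM against 1.92 in macrophages, and the lysozyme Lyz2 at 1156 against 2640. Gelatinase granules are filled last. Mmp9, their gelatinase, had 0, 3 and 17 UMIs per cell (lowest, median, highest) in 86.1% of cells and stood at 728 against 12.0 CPM (60.8-fold higher, 40.8 to 94.7), and Mmp8, the neutrophil collagenase, at 301 against 0.479 CPM. Mmp8 is a protein of the specific granules but was placed in the gelatinase list here. Of the 5 genes of that list compared, 2 (Mmp9 and Mmp8) were at least 4-fold higher and 1 at least 4-fold lower. The cell cycle genes Top2a, Ccnb1 and Cdk1 were at 0 UMIs too, and the 3 compared (Top2a, Pcna and Stmn1) were all at least 4-fold lower.

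Inhibitors of proteases were among the leading genes. Of 5 compared, 4 were at least 4-fold higher than in macrophages, with a median log2 ratio of 9.25. Wfdc17 had 0, 13 and 87 UMIs per cell and stood at 4165 against 507 CPM (8.22-fold, 7.67 to 8.82). Wfdc21 stood at 1361 against 0.479 CPM and Slpi, an inhibitor of neutrophil elastase, at 1459 against 2.39 CPM. Stfa2l1, a stefin that blocks cysteine proteases, stood at 894 CPM with 0 UMIs in macrophages, but 42.4% of the neutrophils had any of its UMIs and 1 cell had 46. The stefin genes are near-identical copies, and reads that match several are lost or split in counting, so the levels of Stfa1, Stfa2 and Stfa3 (62.1, 13.7 and 12.4 CPM) are uncertain. Cstb, the general stefin B, was lower in neutrophils (247 against 694 CPM).

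Of 11 receptors for attractants and growth factors compared, 10 were at least 4-fold higher than in macrophages, with a median log2 ratio of 3.31. Several of them passed the minimum through the neutrophils, since macrophages held 0 UMIs of Cxcr2, 11 of Fpr1 and 5 of Hcar2. Fpr1, the receptor for formyl peptides, had 0, 1 and 16 UMIs per cell and stood at 343 against 5.27 CPM (65.1-fold, 35.8 to 132). Hcar2, a receptor for ketone bodies and niacin, stood at 138 against 2.39 CPM, Ptafr, the receptor for platelet-activating factor, at 338 against 37.8 CPM, and Csf2rb, the shared chain of the GM-CSF receptor, at 265 against 28.7 CPM. Cxcr4, which holds neutrophils in marrow and is known from aged cells, was found in 54.5% of the neutrophils and stood at 224 against 14.8 CPM. The exception was C5ar1, the receptor for complement C5a, at 463 against 554 CPM. Against monocytes, 7 of 12 receptors were at least 4-fold higher and 0 at least 4-fold lower.

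Of 8 adhesion genes compared, 5 were at least 4-fold higher, with a median log2 ratio of 2.38. Cd44, the hyaluronan receptor, stood at 1977 against 231 CPM (8.57-fold, 7.73 to 9.50), Selplg, the ligand of P-selectin, at 417 against 66.6 CPM, and Itgal, a chain of the integrin LFA-1, at 274 against 30.6 CPM. The integrin chains Itgam and Itgb2, together Mac-1, were within 4-fold, at 406 against 282 and 212 against 147 CPM. The surface proteins that tie neutrophils to vessel walls were thus unequal in their difference from macrophages.

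Of 9 pattern recognition receptors and adaptors, 4 were at least 4-fold higher and 0 lower, with a median log2 ratio of 1.82. The 4 were Clec4e, which binds microbial glycolipids and debris of dead cells (1097 against 38.3 CPM, 28.6-fold), its relative Clec4d (1136 against 89.6), Trem1, an amplifier of inflammation (568 against 10.5), and Trem3 (188 against 7.18). The Toll-like receptors Tlr2, Tlr4 and Tlr13 and their adaptor Myd88 were 2.20, 3.53, 2.42 and 2.07 times as high. Fc receptors went the other way, with 0 of 5 at least 4-fold higher and 2 at least 4-fold lower. These were Fcgr1, the high-affinity receptor for IgG (6.21 against 256 CPM), and the inhibitory Fcgr2b (8.69 against 193), while Fcgr3 (210 against 300) and Fcgr4 (82.0 against 104) were close.

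Neutrophils held more RNA of several genes of the IL-1 system than macrophages, for the same total of UMIs. Il1b (chr2:129364570-129371139, minus strand), the gene of IL-1β, had a lowest, median and highest count of 0, 38 and 112 UMIs per neutrophil and 0, 2 and 126 per macrophage, so the ranges overlapped while the medians lay far apart. It stood at 8020 CPM in neutrophils (6.27-fold higher than the 1280 of macrophages, 5.99 to 6.56), 2464 in monocytes and 1.12 in TAL cells. The neutrophils without an Il1b UMI were all shallow, at 694 to 1723 UMIs, and held 0 UMIs of Cxcr2 as well. The lowest count of 0 thus comes from such barcodes. A UMI of Il1b was found in 95.8% of the neutrophils and 2.94% of the TAL cells. With each cell thinned to 1000 UMIs, which left out 1 neutrophil, the share was 95.1% in neutrophils, 42.5% in macrophages and 0% in TAL cells. The TAL cells were deeper, so thinning can shrink their free RNA more than that of neutrophils. Their thinned shares, here and below, can thus understate the background. The 165 neutrophils, 1.26% of the kept cells, held 33.7% of the library's Il1b UMIs, and the 282 monocytes held 41.9%.

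The genes that oppose IL-1 were also higher in neutrophils than in macrophages. Il1r2, a decoy receptor that binds IL-1β without signaling, had 0, 9 and 48 UMIs per neutrophil and 0, 0 and 6 per macrophage. It stood at 2314 against 13.9 CPM (167-fold, 116 to 249), and was found in 94.5% of neutrophils (84.1% after thinning) and 0% of TAL cells. Il1rn, the IL-1 receptor antagonist, had 0, 1 and 23 UMIs per neutrophil and 0, 0 and 16 per macrophage. It stood at 266 CPM in neutrophils, 35.0 in macrophages, 44.8 in monocytes and 5.40 in TAL cells, a ratio to macrophages of 7.60 (5.80 to 10.1). A UMI of Il1rn was found in 50.3% of the neutrophils and 7.35% of the TAL cells, and after thinning in 23.8% of neutrophils, 1.40% of macrophages and 1.47% of TAL cells. For every UMI of Il1rn there were 30.2 of Il1b in neutrophils, 36.6 in macrophages and 55 in monocytes, so both genes differed from macrophages by similar factors. Il1rap, the chain shared by the IL-1 receptors, stood at 823 against 12.9 CPM, whereas Il1r1, the signaling receptor itself, had 5 UMIs in all ischemia neutrophils, 4 of them in 1 cell.

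Of 5 genes of the IL-1 receptors and the inflammasome that could be compared, 4 were at least 4-fold higher (Il1r2, Il1rap, Nlrp3 and Casp4) and 1 lower. Nlrp3, the sensor of the inflammasome that matures IL-1β, stood at 563 against 94.3 CPM (5.96-fold, 5.03 to 7.09). Its adaptor Pycard was the gene that was lower, at 49.7 against 310 CPM (ratio 0.160, 0.113 to 0.220). Without the 8 deep cells this ratio was 0.0904. Among other cytokines, Csf1, the growth factor of macrophages, was found in 37.6% of the neutrophils and stood at 237 against 0.479 CPM, with 4.60 in monocytes. Osm (oncostatin M) stood at 145 against 42.6 CPM, and Tnf at 62.1 against 163 CPM. Il6 and Il10 had 0 UMIs in the neutrophils, which allows up to 3.73 CPM. Of 6 cytokines compared, 3 (Il1b, Il1rn and Csf1) were at least 4-fold higher.

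**Figure D2:**
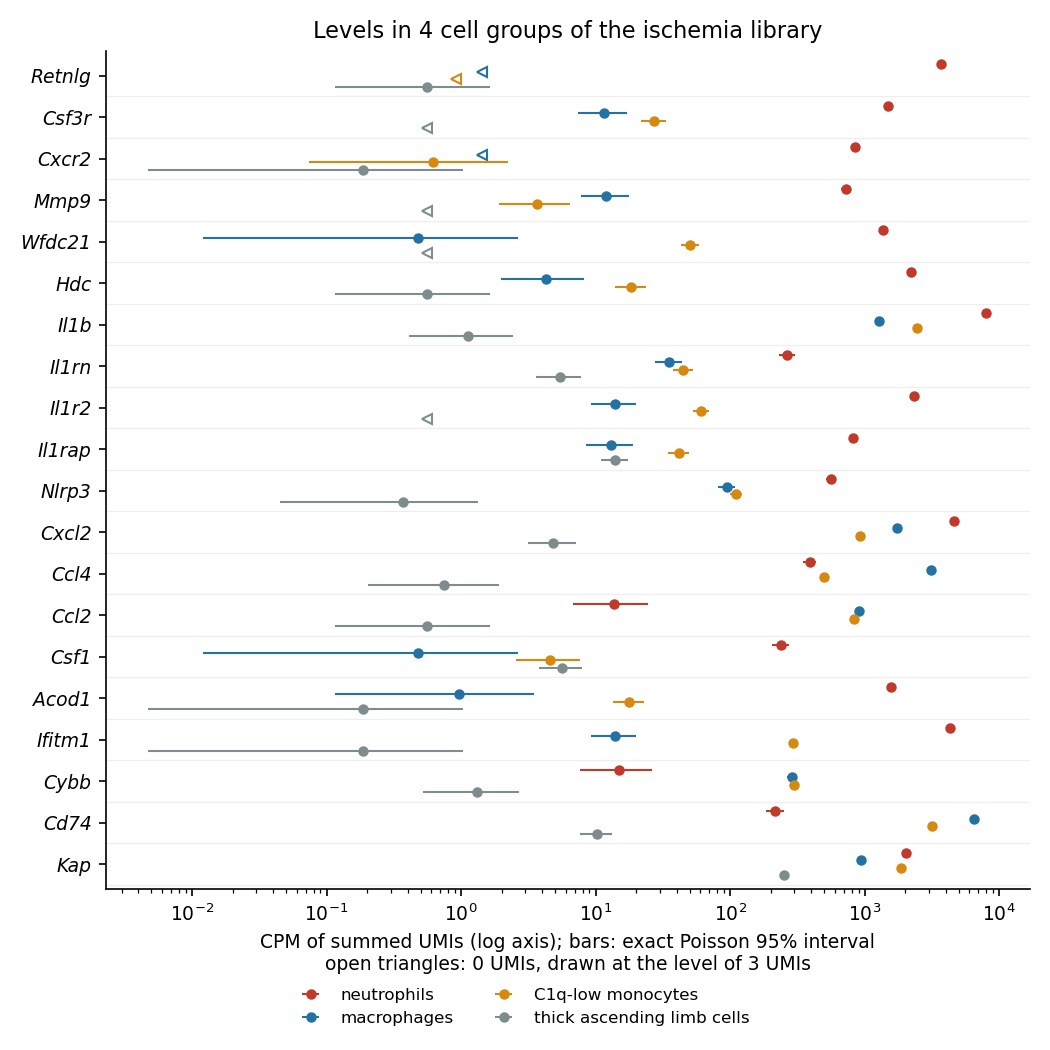
CPM (x, log axis) of genes named in the text in 4 groups of cells of the ischemia library, with exact Poisson 95% intervals, and open triangles at the level of 3 UMIs where a group had 0. The neutrophil points lie to the right of the macrophage points for the markers, the IL-1 genes and Cxcl2, and to the left for Ccl4, Ccl2, Cybb and Cd74.

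Of 10 chemokines compared, 1 was at least 4-fold higher and 6 at least 4-fold lower than in macrophages, with a median log2 ratio of -2.94. The 2 compared that attract neutrophils through Cxcr2, Cxcl2 and Cxcl3, were higher. Cxcl2 had 0, 12 and 225 UMIs per neutrophil and 0, 0 and 237 per macrophage, and stood at 4648 CPM in neutrophils, 1749 in macrophages, 922 in monocytes and 4.84 in TAL cells. Its ratio was 2.66 to macrophages (2.54 to 2.78) and 5.04 to monocytes. Cxcl3 stood at 124 against 14.4 CPM, with 1 cell holding 33 of its 100 UMIs. The other CXC members compared were lower, Cxcl16 at 6.21 against 499 CPM and Cxcl10 at 80.7 against 233 CPM. Of the 6 CC chemokines compared, which attract monocytes and lymphocytes among other cells, 5 were at least 4-fold lower. Ccl2 had 11 UMIs in all and stood at 13.7 against 900 CPM (ratio 0.0152, and 0.00693 without the 8 deep cells), Ccl3 at 62.1 against 1129 CPM and Ccl9 at 14.9 against 312 CPM. Ccl4 stood at 391 against 3117 CPM, was found in 22.4% of the neutrophils with 55 UMIs in the highest cell, and was close to monocytes (498 CPM). Ccl6, the remaining CC member, stood at 944 against 712 CPM.

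The sequences before the start sites of 5 of these genes are shown because S100a8 and S100a9 chose the cells, Il1b and Cxcl2 led their secreted genes, and Cxcl3 was the chemokine past 4-fold. They are the 250 bases before each RefSeq start site (GRCm38.p6, the mm10 build), read 5′ to 3′ on the strand of the gene, and the deposited data hold no measurement of binding there. Windows are chr3:90668821-90669070 (S100a8, plus), chr3:90695722-90695971 (S100a9, minus), chr2:129371140-129371389 (Il1b, minus), chr5:90903649-90903898 (Cxcl2, plus) and chr5:90785851-90786100 (Cxcl3, plus). Capitals mark matches to 3 sets of letters. They are TATAAA on the strand of the gene (TATA box), TTNNGNAA on either strand (a loose form of the C/EBP motif) and GGG and TTCC with any 3 bases between them on either strand (NF-kB).
S100a8: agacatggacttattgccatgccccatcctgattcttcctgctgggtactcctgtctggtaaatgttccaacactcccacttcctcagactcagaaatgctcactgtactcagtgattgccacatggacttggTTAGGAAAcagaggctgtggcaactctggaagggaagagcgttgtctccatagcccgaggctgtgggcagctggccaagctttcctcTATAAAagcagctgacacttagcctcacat
S100a9: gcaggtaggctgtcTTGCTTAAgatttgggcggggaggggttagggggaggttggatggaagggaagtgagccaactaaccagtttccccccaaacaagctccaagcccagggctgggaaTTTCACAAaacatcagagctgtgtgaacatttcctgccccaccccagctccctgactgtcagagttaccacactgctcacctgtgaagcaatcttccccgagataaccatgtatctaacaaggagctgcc
Il1b: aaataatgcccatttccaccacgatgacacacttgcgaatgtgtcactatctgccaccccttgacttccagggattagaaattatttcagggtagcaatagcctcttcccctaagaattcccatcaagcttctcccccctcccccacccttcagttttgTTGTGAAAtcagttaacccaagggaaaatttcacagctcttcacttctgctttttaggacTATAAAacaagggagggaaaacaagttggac
Cxcl2: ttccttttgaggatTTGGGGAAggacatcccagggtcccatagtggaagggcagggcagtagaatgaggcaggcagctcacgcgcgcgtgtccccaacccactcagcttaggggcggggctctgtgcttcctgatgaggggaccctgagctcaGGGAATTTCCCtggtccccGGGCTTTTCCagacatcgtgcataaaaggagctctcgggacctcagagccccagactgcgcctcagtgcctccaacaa
Cxcl3: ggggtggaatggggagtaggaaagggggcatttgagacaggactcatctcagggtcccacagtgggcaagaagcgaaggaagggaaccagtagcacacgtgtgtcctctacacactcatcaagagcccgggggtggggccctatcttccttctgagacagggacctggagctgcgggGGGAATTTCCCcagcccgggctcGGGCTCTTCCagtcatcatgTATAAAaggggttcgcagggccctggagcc
S100a8 held 1 TATA and 1 C/EBP match, S100a9 2 C/EBP matches and Il1b 1 TATA and 1 C/EBP match. Cxcl2 held 1 C/EBP and 3 NF-kB matches and Cxcl3 1 TATA and 3 NF-kB matches, where in both genes the first 2 NF-kB matches overlap on opposite strands. Of 32851 windows of the same length, 7.59% held the TATA letters, 36.8% the C/EBP letters and 4.65% the NF-kB letters, so the C/EBP match is common. A match describes the letters and not a bound site. In the gene annotation of mm10, S100a8 and Cxcl2 begin inside their windows.

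Genes that NF-kB activates, and that feed back on it, were within 4-fold of macrophages for the most part. Of 10 compared, 2 were at least 4-fold higher, Tnfaip2 (940 against 14.8 CPM) and Tnfaip3, the ubiquitin-editing brake A20 (323 against 76.1), and the median log2 ratio was 1.18. Over all genes compared, 9.91% were at least 4-fold higher and 15.6% at least 4-fold lower, so most genes lay within 4-fold. Nfkbia, the inhibitor that holds NF-kB in the cytosol, had 0, 3 and 45 UMIs per cell and stood at 1218 against 569 CPM, and Nfkbiz at 766 against 422 CPM. Acod1, which makes the anti-inflammatory metabolite itaconate, had 0, 5 and 37 UMIs per neutrophil and stood at 1577 CPM, with 2 UMIs in all macrophages (0.958 CPM) and 17.8 CPM in monocytes.

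Of 8 interferon response genes compared, 4 were at least 4-fold higher and 1 at least 4-fold lower, with a median log2 ratio of 2.01. The lower one, Bst2, stood at a ratio of 0.142, and 0.0534 without the 8 deep cells. The interferon response genes differed in how they were spread over the cells. Ifitm1, a membrane protein that hinders virus entry, was found in 94.5% of the neutrophils with 0, 17 and 85 UMIs per cell and stood at 4308 against 13.9 CPM, with 291 in monocytes. Slfn4 stood at 299 against 1.44 CPM, and Ifitm6 at 202 against 4.31 CPM but 206 in monocytes. The fourth was Isg15 (207 against 47.4 CPM), a gene of the core response to type I interferon, and its own spread over cells is not given. As a sum, genes of this response were concentrated in few cells. Over 8 such genes, Ifit1 to Oasl1 in the list, 5 of the 165 cells held 209 of 353 UMIs, the highest 3 with 85, 79 and 19. Rsad2, for example, had 96 UMIs in 6.67% of the cells, 43 of them in 1.

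The NADPH oxidase is built from 2 membrane chains (Cybb and Cyba) and cytosolic subunits, and these differed. The cytosolic Ncf1 stood at 375 against 85.2 CPM (4.40-fold, 3.64 to 5.33), Rac2 at 514 against 233 CPM and Ncf4 at 160 against 107. The membrane chains were lower, Cyba at 551 against 1450 CPM and Cybb, the catalytic chain, at 12 UMIs in 4.24% of the cells or 14.9 against 287 CPM (ratio 0.0519, 0.0266 to 0.0913). Without the 8 deep cells its ratio was 0.0217. Of the 6 genes, 2 were at least 4-fold higher and 1 lower, where the shares over all genes compared were 9.91% and 15.6%. Of the eicosanoid enzymes, Ptgs2 (cyclooxygenase-2, the inducible step to prostaglandins) stood at 667 against 48.4 CPM, and Alox5ap, which feeds 5-lipoxygenase, at 909 against 532 CPM.

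Of 10 genes of survival and death compared, 2 were at least 4-fold higher and 2 at least 4-fold lower. Over all genes compared, the shares were 9.91% and 15.6%, so such counts are not particular to this list. Mcl1, the short-lived protein on which neutrophil survival depends, had 0, 6 and 25 UMIs per cell and stood at 1262 against 323 CPM (3.90-fold, 3.54 to 4.31), and without the 8 deep cells at 4.35-fold. Fas, a death receptor, stood at 134 against 5.75 CPM and Bcl2l11 (Bim), which triggers the mitochondrial path to apoptosis, at 324 against 38.3 CPM. Bax stood at 47.2 against 326 CPM and Bcl2 at 14.9 against 80.5 CPM (ratio 0.185, and 0.0194 without the 8 deep cells). The Bcl2a1 genes are near-identical copies with uncertain counts, and 3 of them (Bcl2a1a, Bcl2a1b and Bcl2a1d) were at 0.382, 0.587 and 0.396 of the macrophage level. For glycolysis and hypoxia genes the median log2 ratio was -0.01. Of 13 compared, 1, the glucose transporter Slc2a3 (128 against 13.4 CPM), was at least 4-fold higher, a share near that of all genes.

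Of 11 transcription factors of the myeloid line compared, 5 were at least 4-fold higher and 3 at least 4-fold lower. Cebpb, which drives granulocyte production under stress, had 0, 11 and 33 UMIs per cell and stood at 2370 against 577 CPM, and Klf2 at 584 against 68.0 CPM. Among the lower were Maf at 47.2 against 319 CPM and Irf8, which steers progenitors to monocytes, at 2.48 against 156 CPM. Cebpe and Gfi1, factors of granule formation in immature cells, had 5 and 1 UMIs. All 6 MHC class II genes compared were at least 4-fold lower, with a median log2 ratio of -4.52. Cd74, the chaperone of class II, stood at 215 against 6497 CPM (ratio 0.0331), and without the 8 deep cells the ratio was 0.00312 and the list median -8.22.

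**Figure D3:**
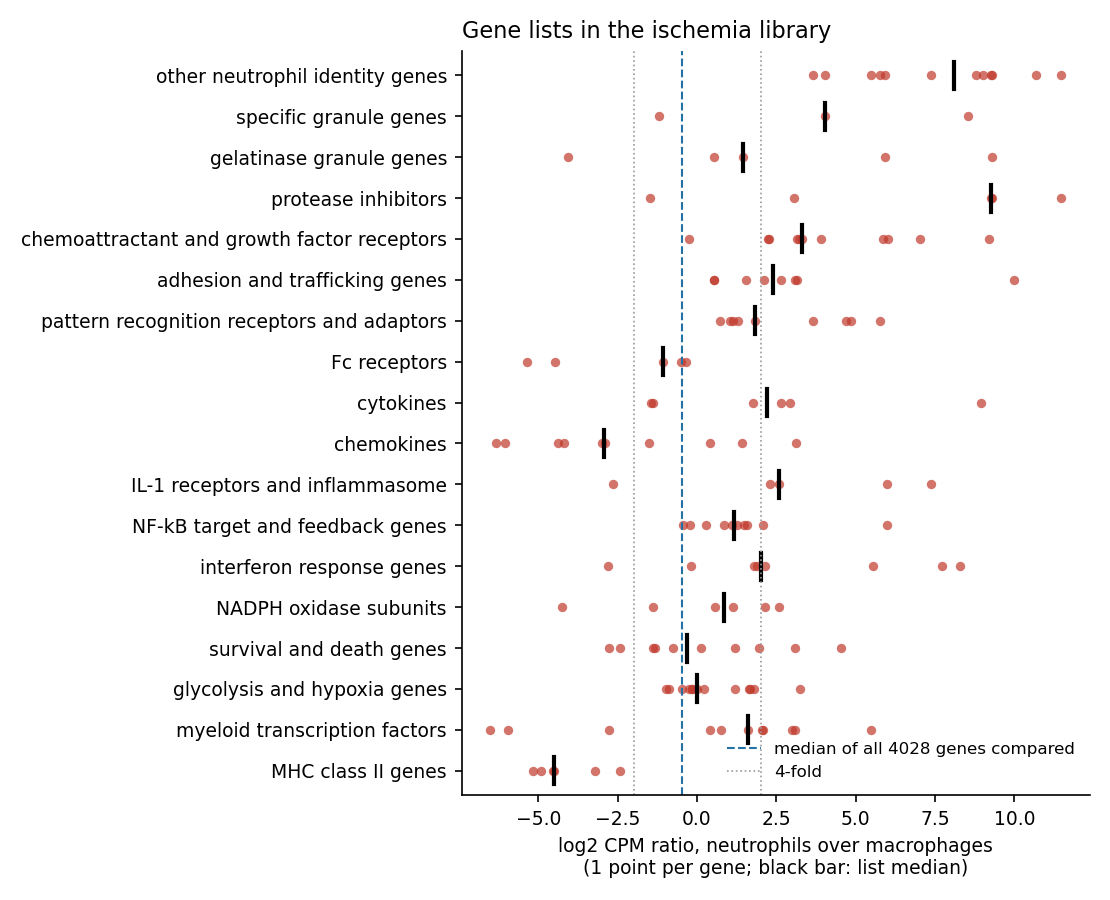
log2 ratio of CPM in ischemia neutrophils to macrophages (x) for the compared genes of 18 lists (rows), 1 point per gene, black bars at the list medians, the dashed line at the median of all 4028 genes (-0.46) and dotted lines at 4-fold. Receptors, protease inhibitors and IL-1 genes lie mostly to the right, and chemokines and MHC class II genes mostly to the left.

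Compared with the C1q-low monocytes, which are closer in origin, several of these differences were smaller. The 12 identity genes had a median log2 ratio of 4.54 in place of 8.09, and 11 of 12 were at least 4-fold higher. Il1b was 3.25-fold higher (3.15 to 3.36), Il1r2 38.1-fold and Il1rn 5.93-fold. The specific granule genes had 0 of 3 at least 4-fold higher, and monocytes carried Hp (226 CPM) and Lyz2 (8002 CPM). Of 11 chemokines, 1 (Cxcl2) was at least 4-fold higher and 4 at least 4-fold lower. MHC class II genes were at least 4-fold lower for 7 of 7.

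The ischemia neutrophils also differed among themselves. Cells were thinned to 1000 UMIs to remove depth, which kept 164, and a ratio of variance to mean of 1 is what sampling alone gives. Of 769 genes with a thinned mean of at least 0.2 UMIs, the median ratio was 1.20, and 57 genes had a ratio of 2 or more. The highest were the globin genes Hbb-bs, Hba-a1 and Hba-a2 through the 1 cell named above, then S100a9 (16.9), S100a8 (12.1), Cxcl2 (11.3), Gm42418 (10.4), Retnlg (10.3), Ccl4 (7.15) and Malat1 (6.47). Gm42418 is a locus that holds ribosomal RNA sequence, and Malat1 is a nuclear RNA. Il1b, at a higher level than Cxcl2, was steadier (3.29).

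Some lists of genes varied together across the cells. Per 1000 UMIs, cytokine genes had 0, 9 and 28 UMIs (lowest, median, highest), chemokines 0, 4 and 51, NF-kB genes 0, 4 and 23, protease inhibitors 0, 7 and 29, and S100a8 and S100a9 17, 98.5 and 276. Over the 164 thinned cells, Spearman's rho was 0.56 between cytokines and chemokines, 0.53 between cytokines and NF-kB genes, 0.55 between chemokines and NF-kB genes, and 0.54 between NF-kB genes and pattern recognition receptors. Spearman's rho was also 0.52 between specific granule genes and S100a8 and S100a9, 0.50 between protease inhibitors and S100a8 and S100a9, and 0.38 between protease inhibitors and interferon response genes. S100a8 and S100a9 also chose the cells, with the limit of 2%, so the rule bounds their range from below. Further values were 0.48 for chemokines and pattern recognition receptors, 0.47 for cytokines and the same receptors, and 0.42 for cytokines and chemoattractant receptors. The gelatinase granule genes stood at 0.22 with chemoattractant receptors, 0.18 with specific granule genes, 0.14 with S100a8 and S100a9 and -0.03 with protease inhibitors. Examples of low values were 0.13 for specific granule genes and chemokines, 0.13 for interferon response genes and cytokines, -0.09 for protease inhibitors and NF-kB genes and -0.01 for cytokines and S100a8 and S100a9. For single genes rho was 0.50 between Il1b and Cxcl2, 0.41 between Retnlg and the S100 genes, -0.12 between Il1b and Retnlg, and 0.05 between Il1b and Il1r2. All cells come from 1 library and share its free RNA, and the fixed total of 1000 UMIs ties the lists to each other. The depth of the cell before thinning had rho of -0.12 with cytokines, -0.13 with chemokines and 0.15 with protease inhibitors. Over the 148 thinned cells of 2000 to 10000 UMIs (limits chosen after seeing the data), rho was 0.47 between cytokines and chemokines, 0.46 between cytokines and NF-kB genes, 0.50 between chemokines and NF-kB genes, 0.47 between NF-kB genes and pattern recognition receptors, 0.50 between specific granule genes and S100a8 and S100a9, and 0.43 between protease inhibitors and the same 2 genes. In these cells it was 0.31 between protease inhibitors and interferon response genes, 0.29 between cytokines and chemoattractant receptors, and 0.42 between Il1b and Cxcl2. Between Il1b and Il1r2 it was -0.10 in place of 0.05, and between Il1b and Retnlg -0.20. The gelatinase granule genes then stood at 0.07 with chemoattractant receptors, 0.12 with specific granule genes and 0.06 with S100a8 and S100a9. Also in these cells, rho was -0.01 for interferon response genes and cytokines, and -0.16 for cytokines and S100a8 and S100a9. For protease inhibitors and NF-kB genes it was -0.17. Chemokines stood at 0.39 and cytokines at 0.35 with pattern recognition receptors.

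**Figure D4:**
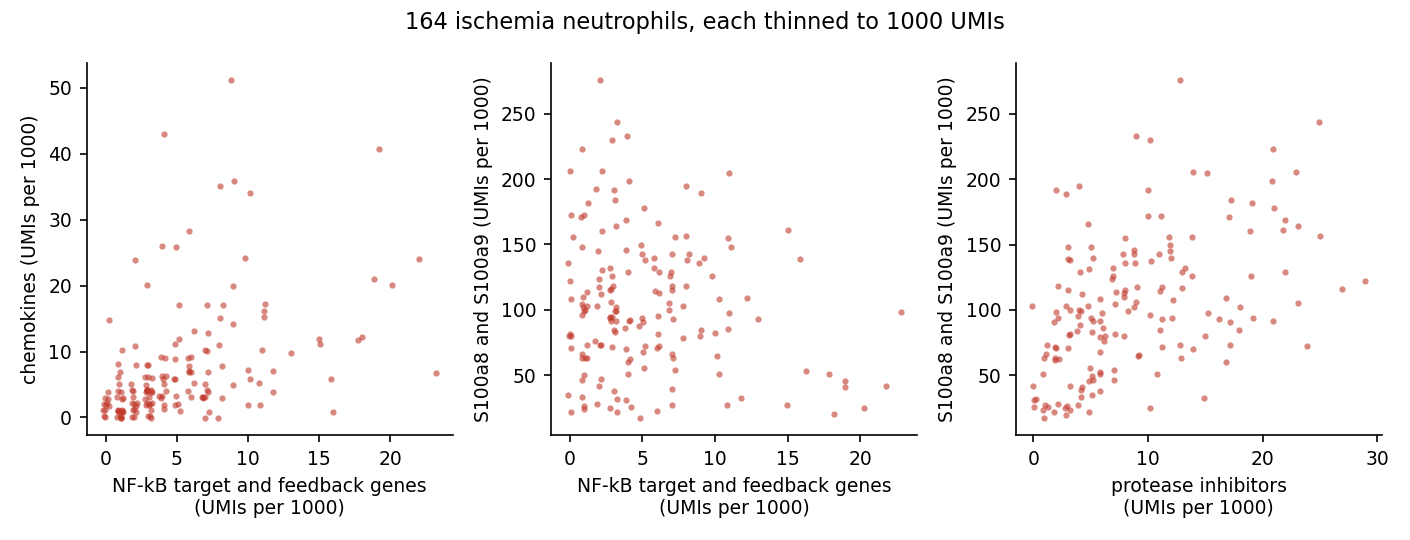
UMIs of gene lists in 164 ischemia neutrophils, each thinned to 1000 UMIs, 1 point per cell with a small random shift. Chemokines against NF-kB genes (left, rho 0.55) and S100a8 and S100a9 against protease inhibitors (right, rho 0.50) spread upward together, while S100a8 and S100a9 against NF-kB genes (middle, rho -0.06) do not.

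Neutrophils of the 2 libraries could be compared for 2442 genes with at least 50 UMIs over both. Of these, 128 (5.24%) were at least 4-fold higher in the ischemia library and 5 (0.205%) at least 4-fold lower. The median log2 ratio was 0.44, so most genes had a somewhat higher CPM in the ischemia cells. The ischemia neutrophils held 805212 UMIs against 107802, so genes near the minimum passed it mostly through them. Such a gene could be called higher on very few control UMIs, while a lower call needed more. The higher and lower counts are thus not on equal terms and support no direction. These counts depended on the processing, with 46 higher and 22 lower after thinning, 72 and 0 without neutrophils over 10000 UMIs, and 8 or 12 lower with other denominators. The control cells number 18, and 1 of them, with 24423 UMIs, 54.1% mitochondrial UMIs and 427 UMIs of proximal tubule markers, carries much of their total. The 5 lower genes were Slc5a12, Nhs, Slc5a2, Fut9 and Nox4, of which Slc5a12 and Slc5a2 are transporters of the proximal tubule, and without cells over 25% mitochondrial UMIs there were 0 lower genes. Of 7 proximal tubule markers, the median log2 ratio was -0.95. Spp1, which stood at 78568 CPM in the TAL cells of the ischemia library, was 7.64-fold higher in its neutrophils (6.11 to 9.68), at 5526 against 724 CPM, with 22 UMIs per neutrophil and 20 per macrophage at the median. The genes highest in ratio were Hbb-bs, Hba-a1 and Hba-a2 from the 1 cell, Clu, of which 1 cell held 325 of 665 UMIs, and Rpl36al with 1 control UMI. The part of free RNA in these ratios was not tested.

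Among inflammatory genes, values per 10000 UMIs of each cell are given for both libraries as lowest, median and highest. Il1b was 6.55, 77.5 and 195 in control neutrophils and 0, 86.5 and 305 in ischemia neutrophils. The summed level was 5723 against 8020 CPM, a ratio of 1.40 (1.29 to 1.52), which is near the median of all genes, and the cells overlapped almost fully. Cxcl2 was 0, 5.92 and 168 in control and 0, 29.8 and 475 in ischemia neutrophils. Its summed ratio was 3.46 (2.93 to 4.11), and over 13 alternatives 2.45 to 3.78. Acod1 was 0, 2.22 and 33 in control and 0, 11.2 and 103 in ischemia neutrophils, with a summed ratio of 4.15 (3.04 to 5.81), and 2.74 after thinning. For both genes the medians lay apart while the ranges overlapped.

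Of the genes that oppose IL-1, Il1r2 had a higher summed ratio between libraries than Il1b, and the ratio of Il1rn rested on 5 control UMIs. Il1r2 was 0, 11.7 and 37.9 per 10000 UMIs in control and 0, 21.1 and 115 in ischemia neutrophils, with a summed ratio of 2.10 (1.74 to 2.54). Il1rn had 5 UMIs in the control neutrophils, spread over 4 of 18 cells, and 214 in the ischemia neutrophils, spread over 83 of 165, and its ratio was 5.73 (2.42 to 17.8). For every UMI of Il1rn there were 123 of Il1b in the control neutrophils and 30.2 in the ischemia neutrophils, the former from 5 UMIs. Ccl4 was found in 0 of 18 control cells, which allows up to 27.8 CPM, and in 37 of 165 ischemia cells, at least 14.1-fold higher by the summed level (2.60 after thinning, where fewer UMIs set the limit), although 1 ischemia cell held 55 of 315 UMIs. Csf1, with 4 control UMIs, was 6.39-fold higher (2.46 to 23.7) and 2.30 to 17.5 over the alternatives, Fpr1 3.70-fold (1.98 to 7.79) and 2.43 to 6.15 over the alternatives, and Nlrp3 3.19-fold (2.02 to 5.35). Of 6 cytokines compared, 3 (Il1rn, Csf1 and Tgfb1, with 5, 4 and 1 control UMIs) were at least 4-fold higher, as were 2 of 6 chemokines (Ccl4 and Cxcl3, both at 0 in the control cells) and 0 of 10 NF-kB genes, whose median log2 ratio was 1.22. These 5 cytokine and chemokine genes passed the minimum of 50 UMIs through the ischemia cells alone, so their counts support no difference between the libraries.

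Of the markers that took no part in the choice, Retnlg was 2.06, 29.3 and 157 per 10000 UMIs in control and 0, 12.4 and 345 in ischemia neutrophils, and its summed ratio was 0.696 (0.636 to 0.762). Wfdc17 was 8.25, 60.3 and 190 in control and 0, 31.4 and 217 in ischemia neutrophils, with a ratio of 0.612 (0.565 to 0.664). Csf3r stood at a ratio of 0.867 and Cxcr2 at 1.03. S100a8 and S100a9, at 0.844 and 0.864, had to pass the rule in both libraries and are given as description. The 13 further identity genes compared, Il1r2 and Acod1 among them, had a median log2 ratio of 0.37, against 0.44 for all genes, with 1 at least 4-fold higher and 0 lower. Slc2a3 was 0.373 (0.254 to 0.558), and Hif1a, the hypoxia factor, 5.09 (2.30 to 14.0) with 6 control UMIs, and 2.09 to 20.9 over the alternatives.

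**Figure D5:**
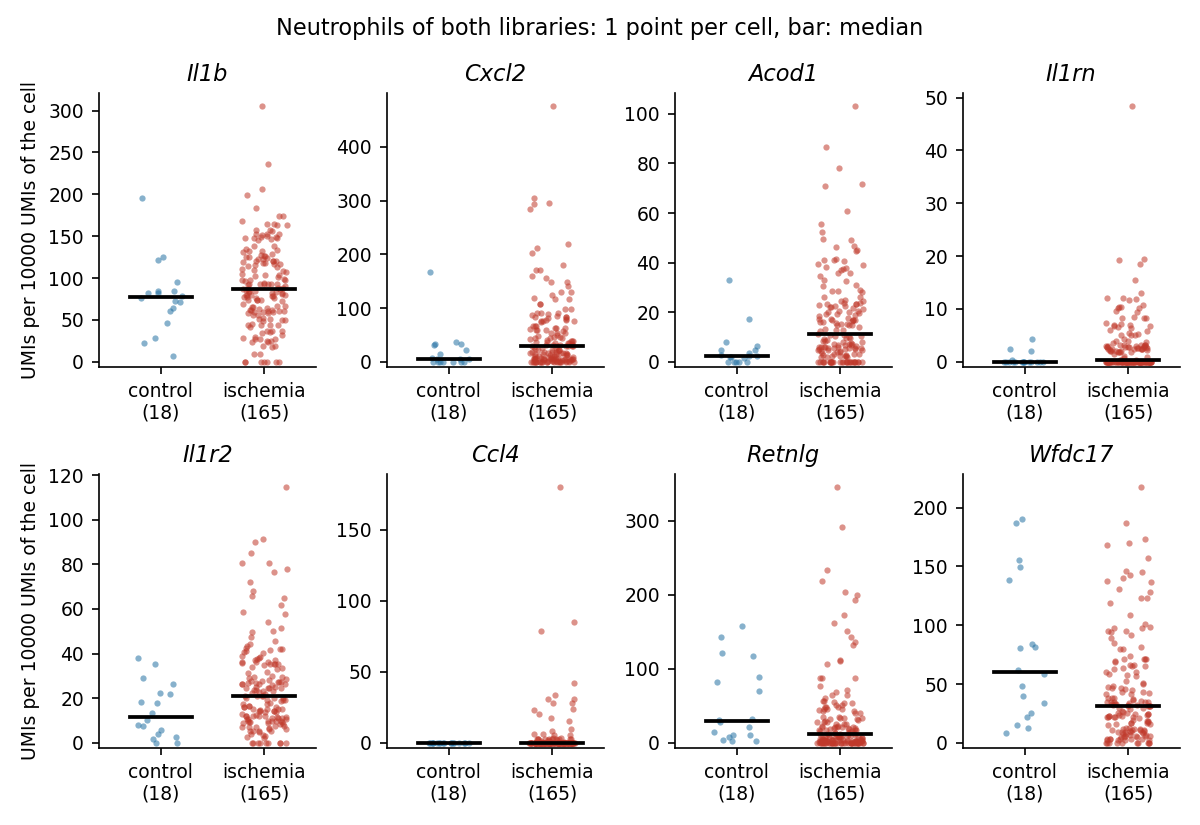
UMIs of 8 genes per 10000 UMIs of each cell (y, linear axes that differ between panels) in the 18 control and 165 ischemia neutrophils, 1 point per cell with a random sideways shift, bars at the medians. Cxcl2, Acod1 and Il1r2 have higher medians in the ischemia library and Retnlg and Wfdc17 lower ones, and in all panels the cells of the libraries overlap.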

How the data were processed

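The deposited values were raw counts: the authors wrote filtered matrices of UMI counts per gene and cell with Cell Ranger 7.0.0 on mm10 (per the labels and the submitters' processing notes), from digested kidney run on droplet 3′ chemistry after red cell lysis and straining. Counts were used as deposited, for 32285 listed genes. UMIs were summed per group of cells and divided by all UMIs of the group. Genes were compared where both groups together held at least 100 UMIs (50 between libraries), and 4-fold was the limit of a count. The members, the gene lists and the markers were chosen with earlier results of these data known. Genes named in the text are those of 33 lists, the 15 highest by CPM, the 10 highest and lowest by ratio to macrophages, the 10 highest by variance over mean and the 5 highest and lowest by ratio between libraries. The listed genes Clec7a and BC100530 were not analysed here, and a few listed genes are not reported here. The genes behind the sum of 8 interferon genes, the split of UMIs over single cells and 5 of the alternatives were chosen after seeing the data. Neutrophil and macrophage sums were also simulated as Poisson counts from the macrophage profile, with 3919 genes compared. The true ratio lay inside 95.9% of intervals. At a simulated 8-fold, 100 of 100 higher and 99 of 100 lower genes passed 4-fold, against 0 of 3719 unchanged genes. The intervals assume Poisson counts too, so the simulation checked the calculation only. It held no variation between cells and cannot show how the intervals behave with it. Python 3.11.15, numpy 2.4.6, scipy 1.17.1, pandas 2.3.3, matplotlib 3.10.9 and scanpy 1.11.5 were used. Gene positions are from GENCODE for mm10, and 32158 of the listed genes matched it.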

Additional observations from a re-analysis of the deposited data

How the results depend on the processing

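Each group was 1 library, so leaving out a replicate was not possible. No paired analysis was possible because each condition has 1 library and no test was run. Depth limits the control side, where 18 cells held 107802 UMIs. Leaving out Scrublet's calls tested nothing, since it called 0 ischemia cells, and a C1q limit of 0.1% for neutrophils moved 0 of the values, since no neutrophil had more than 1 C1q UMI. The share of neutrophils in the ischemia library (1.26%) was 2.08% with a minimum of 1000 UMIs per cell and 1.04% with S100a8 and S100a9 at 5% or more. Against macrophages, 399 genes were at least 4-fold higher and 629 lower, and with a minimum of 20 UMIs these were 827 and 1279, since more genes were tested. With macrophages at 2% C1q or more, 414 of 1347 (30.7%) were higher and 121 lower. Against monocytes, 458 genes were lower, and 714 with the mean of each cell's CPM, 747 after thinning and 792 without neutrophils over 10000 UMIs (chosen after seeing the data). Between libraries, 128 genes were at least 4-fold higher, and 78 at 5% S100, 46 after thinning and 72 without deep neutrophils. The 5 lower genes became 0 at 5% S100, at 25% mitochondrial UMIs, without cells over 1% proximal tubule UMIs and without deep neutrophils, 1 by the mean of cells, 8 without S100a8, S100a9, the C1q and mt- genes in the total, 12 without further abundant genes (chosen after seeing the data) and 22 after thinning. The share of neutrophils with a UMI fell after thinning from 50.3% to 23.8% for Il1rn and from 94.5% to 84.1% for Il1r2. Reversed were the ratios between libraries of Slc5a12 (main 0.145; 1.48 at 25% mitochondrial UMIs, 1.61 without tubule-rich cells, 1.32 after thinning), Fut9 (main 0.231; 1.05 at 25%) and Nox4 (main 0.245; 1.22 at 5% S100, 1.46 at 25%, 1.49 without tubule-rich cells). Relative to the median of all genes, list medians changed side for survival and death genes at 5% S100 (-0.76) and, with macrophages at 2% C1q or more, for NF-kB genes (0.85), NADPH oxidase subunits (0.63) and glycolysis and hypoxia genes (0.20), where the median of all genes was 0.85 in place of -0.46. The cause was not tested. Of the other comparisons of a value with an alternative, 5952 stayed and 1191 moved.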

Other observations

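The genes with the most UMIs in the ischemia neutrophils were, in order, S100a9, Gm42418, S100a8, Malat1, Tmsb4x, Fth1, Il1b, Actb, Spp1, Srgn, Cmss1, Cxcl2, Ifitm1, Wfdc17 and S100a11. Gm42418 stood at 44350 CPM in the ischemia and 103783 CPM in the control neutrophils. Of the kept ischemia cells' UMIs of single genes, the 165 neutrophils held 97.7% for Retnlg, 85.9% for Cxcr2, 79.4% for Csf3r, 73.3% for Il1r2, 30.5% for Cxcl2 and 21.4% for Il1rn, against 3.43% for Ccl4 and 1.60% for Ccl3.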
